A study of Homo sapiens with 18 samples.

Results

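The expression of 10 genes used as prognostic markers in CLL was followed in the CLL cell lines HG3, MEC2 and PCL12, before and after stimulation of Toll-like receptor 9 (TLR9). The genes were ZAP70, CD38, ITGA4, LPL, CRY1, CLLU1, ADAM29, LAG3, TCL1A and PEG10, and they were found by symbol in the deposited count table, where they made up 10 of 56609 rows. All 10 had at least 10 counts over the 18 libraries and so were among the 31872 genes tested. The lines are Epstein-Barr virus-positive B cell lines, each derived from a single patient, and the paper gives the status of their IGHV genes as unmutated for HG3 and PCL12 and as mutated for MEC2. For each line, 3 libraries came from unstimulated cells and 3 from cells given the TLR9 agonist CpG-ODN2006 at 2.5 μg/ml for 4 h, which made 6 groups. Only 1 line carries mutated IGHV genes, so mutation status and cell line cannot be told apart in any comparison made here.

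CLL is a leukemia of mature B cells, and its course differs between patients whose leukemic cells carry mutated IGHV genes, which is the milder form, and those whose IGHV genes are unmutated. ZAP70, CD38, ITGA4 (the CD49d subunit of an integrin), LPL, CRY1, CLLU1, LAG3 and TCL1A are known as genes whose high expression goes with unmutated IGHV genes or a shorter time to treatment, whereas ADAM29 is known as a gene of the mutated group. PEG10 is an imprinted gene derived from a retrotransposon that leukemic B cells can express. A marker of this kind is defined over patients, and a cell line stands for 1 case grown in culture.

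Levels are CPM, library-size-scaled counts that use TMM factors, and differences are log2 values with their standard error (SE) from edgeR's quasi-likelihood test, with p-values adjusted by the Benjamini-Hochberg method over all 31872 genes. The libraries hold 20382943 to 67308932 counts, so that 3 counts correspond to 0.0429 to 0.155 CPM. Per the labels the libraries were made with QuantSeq, which reads the 3' end of transcripts, while the paper names only a stranded reverse protocol, and levels are compared between samples and not between genes. The sources do not say that replicates were grown as separate cultures, so the p-values measure the spread between these samples, which may be technical. In bulk RNA, fewer cells of a kind and less RNA per cell cannot be told apart.

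Some libraries stand apart. The share of mitochondrial transcripts was 20.2% for HG3 replicate 2 without CpG and 19.7% for MEC2 replicate 2 with CpG, where all other libraries had 2.82% to 9.28%. In PCL12, replicate 1 differs from replicates 2 and 3. Of the genes with at least 20 CPM in each unstimulated MEC2 library, 49 reached no more than 10% of that level in unstimulated PCL12 replicate 1, 1 gene did so in replicate 2 and 0 genes in replicate 3. In the CpG-stimulated libraries, which this choice did not use, the 49 genes had a median of 2.42% of the MEC2 level in PCL12 replicate 1, 33.3% in replicate 2 and 29.3% in replicate 3. The T cell costimulator CD28 shows it, with 5, 483 and 1054 counts in unstimulated PCL12 replicates 1, 2 and 3 and 1198 to 2050 counts in unstimulated MEC2. Why PCL12 replicate 1 and these 4 libraries differ in MEC2-high transcripts was not tested. PCL12 values are from all replicates unless replicate 1 alone is named. In the fit to all libraries, the groups share the spread estimate of a gene. The split of PCL12 thus also enters the SE and p of MEC2 against HG3, as for CD28. In the fit with replicate 1 alone each PCL12 group is 1 library, which is assumed to vary like the other groups, so its SE and p come from the spread of HG3 and MEC2 and are no replicate check of PCL12. With replicate 1 alone, the PCL12 calls on the other genes named here kept their direction, and those lost were PECAM1 (adjusted p = 0.571), ARNTL2 (0.0627), BTG1 (0.678), CLLU1OS (0.162) and GNLY (0.0772) against HG3 and ITGB7 (0.0585), KANK2 (0.370) and SDC1 (0.354) against MEC2. In the same fit, LCK (0.0682) and KANK2 (0.0534) no longer passed between MEC2 and HG3.

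The B cell identity of the lines was seen in all groups. The 9 B cell markers summed to between 5193 and 12624 CPM in every library, and the B cell surface proteins MS4A1 and CD79A were present throughout. Single markers differed: PAX5 was higher and FCER2, like CD5, lower in MEC2 than in HG3 (edgeR, adjusted p under 0.05). In unstimulated HG3, MEC2 and PCL12, FCER2 averaged 2134, 422 and 576 CPM and PAX5 133, 404 and 366 CPM. CD5, a surface protein of typical CLL cells, averaged 44.7 CPM ± 23.0 (SD, n = 3) in unstimulated HG3, but only 0.896 ± 0.697 in PCL12 and 1, 0 and 2 counts in MEC2. T cell markers matter here because ZAP70 and LAG3 are also T cell genes: of the CD3 chains, CD3D had at most 1 count and CD3G at most 4 counts in any library, whereas CD3E had 74, 18 and 29 counts in unstimulated PCL12, 45, 29 and 2 in MEC2 and 0, 0 and 8 in HG3. The 8 markers summed to 91.8 to 145 CPM in unstimulated HG3, 94.8 to 125 in MEC2 and 76.7 to 113 in PCL12. TRAC took most of the sum in HG3 (108 CPM on average) and PCL12 (75.3 CPM), and TRAC (57.9 CPM) and CD28 (54.5 CPM) took most of it in MEC2, where CD28 was higher than in HG3 (7.07, adjusted p = 0.0144 in edgeR's quasi-likelihood test). The part of these transcripts in the results was not tested. In unstimulated cells, 5 NK cell markers summed to 1.14 to 3.40 CPM in HG3, against 4.87 to 10.6 in MEC2 and 6.83 to 10.8 in PCL12, and of these GNLY was higher than in HG3 in MEC2 (3.83, adjusted p = 0.00998) and in PCL12 (4.11, adjusted p = 0.00641). The 6 monocyte markers summed to 0.529 to 3.86 CPM over all libraries. The 6 plasma cell markers summed to 326 to 2036 CPM, and of these only SDC1 passed, higher in MEC2 than in HG3 (1.99, adjusted p = 0.000653) and PCL12 (1.56, adjusted p = 0.0225). The median log2 difference of the 6 was instead -0.39 and -1.11 in these comparisons, so SDC1 went against the median of its list. The part of these markers in the results was not tested.

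The members lie on 6 chromosomes of GRCh38, with positions from GENCODE release 44. ZAP70 is at chr2:97713576-97739862 on the plus strand, CRY1 at chr12:106991364-107093549 on the minus strand and TCL1A at chr14:95709947-95714196 on the minus strand. Their promoters are shown because ZAP70 separated MEC2 from each of the other lines and because CRY1 and TCL1A gave the widest differences. RefSeq promoter windows of GRCh38.p14 are used, which end next to the annotated gene start for ZAP70 and CRY1 and reach into the annotated gene for TCL1A. They are written 5′ to 3′ on the strand of the gene, with CG dinucleotides, the sites of DNA methylation, in capitals. The window of ZAP70 is chr2:97713326-97713575, that of CRY1 is chr12:107093550-107093799, and for TCL1A only the 179 bases upstream of the annotated gene are printed, chr14:95714197-95714375.
ZAP70: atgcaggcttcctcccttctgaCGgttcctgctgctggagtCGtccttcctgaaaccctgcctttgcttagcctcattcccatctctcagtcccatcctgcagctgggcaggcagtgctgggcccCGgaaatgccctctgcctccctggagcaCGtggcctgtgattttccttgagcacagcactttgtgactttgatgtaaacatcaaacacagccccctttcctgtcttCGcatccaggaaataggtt
CRY1: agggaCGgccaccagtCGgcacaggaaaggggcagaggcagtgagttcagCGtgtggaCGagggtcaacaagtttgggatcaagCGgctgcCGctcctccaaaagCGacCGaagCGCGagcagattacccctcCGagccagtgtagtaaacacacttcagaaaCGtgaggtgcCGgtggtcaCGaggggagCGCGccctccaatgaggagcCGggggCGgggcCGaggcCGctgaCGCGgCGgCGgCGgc
TCL1A: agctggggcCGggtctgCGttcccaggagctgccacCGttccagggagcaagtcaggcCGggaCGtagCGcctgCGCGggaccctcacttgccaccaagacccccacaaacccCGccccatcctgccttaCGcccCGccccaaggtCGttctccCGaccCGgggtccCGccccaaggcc

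The 3 windows differ in CG content. Over 250 bases, the ZAP70 window has 5 CG, more than 34.5% of 34788 such windows, CRY1 has 25, more than 78.3%, and TCL1A has 23, more than 74.2%, where the median window has 11. Counted on both strands, the E-box CACGTG was found 1 time in ZAP70 and in neither of the others (6.31% of all windows have it). The GC box GGGCGG was found 1 time in CRY1 and 4 times in TCL1A (42.6% of all windows), and TATAAA 1 time in TCL1A (10.8%). In TCL1A, 3 of the 4 GC boxes and 0 of the TATAAA matches lie in the 179 bases printed, and the others lie in the rest of the window, which is inside the annotated gene and is not shown. The first of these motifs and the GC box each contain a CG. These are letters in a window, and no binding was measured.

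**Figure D1:**
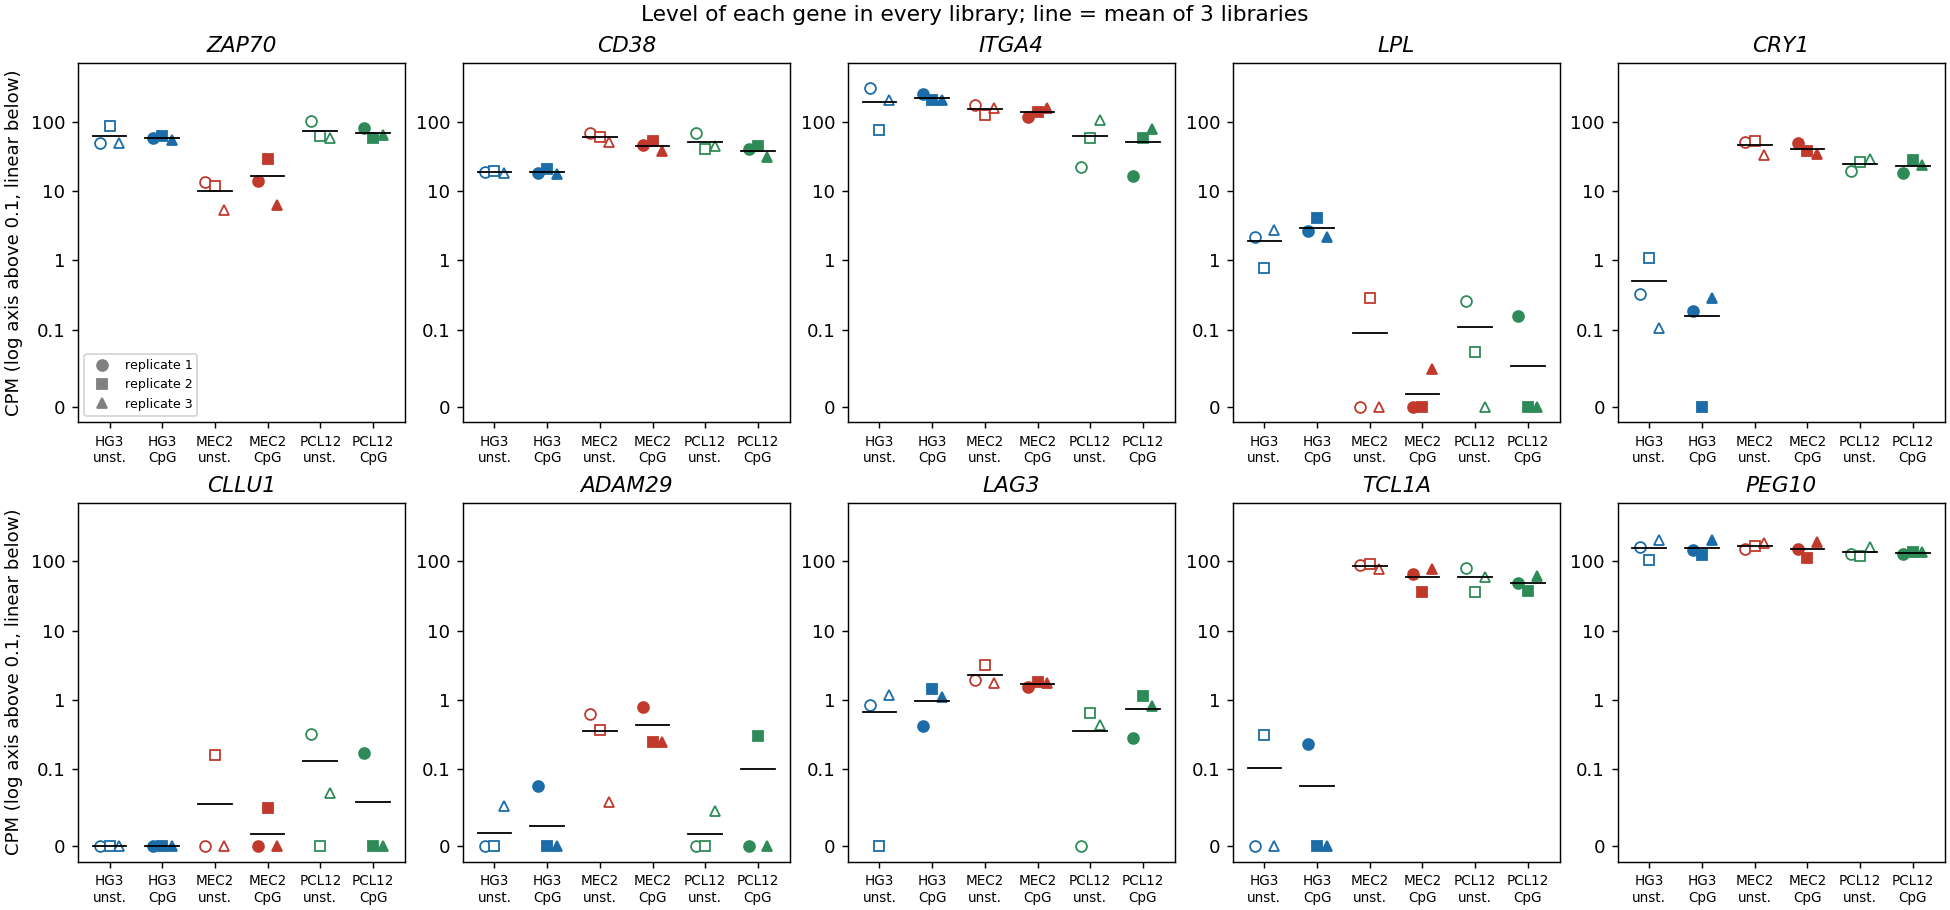
CPM of the 10 genes in the 18 libraries, on an axis that is logarithmic above 0.1 and linear below, with open symbols for unstimulated and filled symbols for CpG-stimulated libraries, 1 symbol shape per replicate number and a line at the mean of 3. ZAP70 is lowest in MEC2, CRY1 and TCL1A are near 0 in HG3, LPL is near 0 outside HG3, and PEG10 lies between 104 and 201 CPM in every library.

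In unstimulated cells, MEC2 differed from HG3 in 5 of the 10 genes (3 higher, 2 lower) at an adjusted p under 0.05, where 9.78% of all genes tested passed, 4.81% as higher and 4.97% as lower. PCL12 differed from HG3 in 4 genes (3 higher, 1 lower; 9.44% of all genes, 4.87% higher and 4.57% lower), although these lines are alike in IGHV status. MEC2 differed from PCL12 in 1 gene, ZAP70, which was lower (2.05% of all genes, 1.53% lower). These shares over all genes are also the ones to set beside the counts of the other gene lists below. The median log2 difference of the 10 genes was 1.70, 0.09 and 0.41 in these comparisons, against 0 over all genes tested in each, and with CLLU1, which had no count in HG3, set at its bound the first of these became 0.89. Libraries of MEC2 and HG3 did not overlap for 7 of the 10 genes (22.2% of all genes tested), those of PCL12 and HG3 for 4 (21.1%) and those of MEC2 and PCL12 for 5 (17.3%). ADAM29 is counted in the first and the last of these only through library scaling, since its lowest MEC2 library and the highest library of each other line had 2 counts each. ZAP70 was the one member that separated MEC2 from each unmutated line at an adjusted p under 0.05, which 217 genes did as lower in MEC2 (0.681%) and 57 as higher (0.179%).

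ZAP70 encodes a cytoplasmic tyrosine kinase that T cells use for antigen receptor signalling and that CLL B cells can express. It stood at 13.4, 11.8 and 5.24 CPM in unstimulated MEC2 (10.2 ± 4.32, SD, n = 3). In HG3 it stood at 48.7, 85.9 and 49.1 CPM (61.2 ± 21.4). In PCL12 it stood at 103, 61.6 and 58.2 CPM (74.3 ± 25.1). Every library of the unmutated lines was above every library of MEC2, while HG3 and PCL12 overlapped. In edgeR's quasi-likelihood test, ZAP70 was lower in MEC2 than in HG3 by a log2 difference of -2.59 (SE 0.43, adjusted p = 0.000234) and lower than in PCL12 by -2.87 (SE 0.43, adjusted p = 0.000404). PCL12 and HG3 differed by 0.28 (SE 0.40, adjusted p = 0.756). Against PCL12 replicate 1 alone, where fewer MEC2-high transcripts are present, the MEC2 difference was -3.38, with an SE of 0.54 and an adjusted p of 0.00116 that rest on the spread of the other lines.

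Of 14 other kinases and adaptors that work beside ZAP70, 4 were higher in MEC2 than in HG3 and none lower, 3 were higher in PCL12 than in HG3, and 2 were higher in MEC2 than in PCL12 (1 with PCL12 replicate 1 alone). SYK, the related kinase of the B cell receptor, averaged 39.9 CPM ± 26.2 in HG3, against 115 ± 10.4 in MEC2 and 120 ± 39.5 in PCL12 (SD, n = 3 each), a log2 difference of 1.53 and 1.58 from HG3 (adjusted p = 0.00644 and 0.00491, edgeR). LCK, a Src-family kinase that phosphorylates ZAP70 in T cells, averaged 51.2, 98.4 and 151 CPM in the same order and was higher in MEC2 (0.94, adjusted p = 0.0410) and PCL12 (1.56, adjusted p = 0.000679) than in HG3. The adaptor SH2D2A averaged 0.196 CPM in HG3, against 34.9 in MEC2 and 13.8 in PCL12 (7.43 and 6.09 from HG3, adjusted p = 1.60e-09 and 2.07e-08). UBASH3B, a phosphatase that acts on these kinases, was at 16.1 CPM in MEC2 and higher there than in HG3 (4.03, adjusted p = 0.000107) and PCL12 (2.37, adjusted p = 0.0352; 4.85 with PCL12 replicate 1 alone).

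CD38, a surface enzyme that consumes NAD, was lowest in HG3. Its level was 18.6, 19.3 and 18.2 CPM in unstimulated HG3 (18.7 ± 0.578, SD, n = 3). It was 67.7, 59.4 and 50.9 CPM in MEC2 (59.3 ± 8.44) and 68.3, 40.8 and 45.3 CPM in PCL12 (51.5 ± 14.8). All 6 libraries of MEC2 and PCL12 were above the 3 of HG3, and MEC2 and PCL12 overlapped. CD38 was higher than in HG3 by 1.67 in MEC2 (SE 0.25, adjusted p = 3.47e-05) and by 1.46 in PCL12 (SE 0.25, adjusted p = 0.000170; 1.89 with replicate 1 alone, adjusted p = 0.000652), and MEC2 and PCL12 differed by 0.21 (SE 0.24, adjusted p = 0.840), or by -0.23 (SE 0.36) with PCL12 replicate 1 alone. PECAM1, which binds CD38 on neighbouring cells, was instead highest in HG3 at 12.7 CPM, with log2 differences of -2.88 in MEC2 and -2.08 in PCL12 (adjusted p = 0.00135 and 0.0168). Of 8 genes of the CD38 ligand and of NAD metabolism, 2 were lower in MEC2 than in HG3, 1 was lower in PCL12 than in HG3, and none was higher.

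ITGA4 encodes the integrin α4 chain that pairs with ITGB1 or ITGB7 and binds VCAM1 on stromal and endothelial cells. In unstimulated HG3 it stood at 301, 75.9 and 203 CPM (193 ± 113, SD, n = 3), with the low value in the mitochondria-rich library. MEC2 had 174, 126 and 160 CPM (153 ± 24.9), and PCL12 had 22.5, 57.3 and 106 CPM (62.1 ± 42.2). MEC2 lay within the range of HG3, and the 3 PCL12 libraries were below the 3 of MEC2. MEC2 and HG3 differed by -0.34 (SE 0.56, adjusted p = 0.813), PCL12 and HG3 by -1.64 (SE 0.58, adjusted p = 0.0994) and MEC2 and PCL12 by 1.30 (SE 0.57, adjusted p = 0.410), none past the threshold.

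For ITGA4 the call in PCL12 changed with the method and with the libraries used. With all replicates, the PCL12 difference from HG3 passed in DESeq2 (adjusted p = 0.00633), in limma-voom (0.0260), with filterByExpr (0.0398) and with no filter (3.11e-07). With replicate 1 as the only PCL12 library, the difference of ITGA4 was -3.08 for PCL12 against HG3 (SE 0.59, adjusted p = 0.00144; 4.35% of all genes passed) and 2.74 for MEC2 against PCL12 (SE 0.57, adjusted p = 0.00767; 1.98% of all genes), with the spread taken from the other lines. On CPM of library totals, ITGA4 in unstimulated PCL12 was at 22.7 in replicate 1 and at 63.5 and 109 in replicates 2 and 3, where the MEC2 mean was 155. The PCL12 difference of ITGA4 from HG3 also passed without HG3 unstimulated replicate 2 (-2.0, adjusted p = 0.0446), without PCL12 CpG replicate 1 (-1.64, adjusted p = 0.0203) and without PCL12 unstimulated replicate 3 (-2.26, adjusted p = 0.0354).

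**Figure D2:**
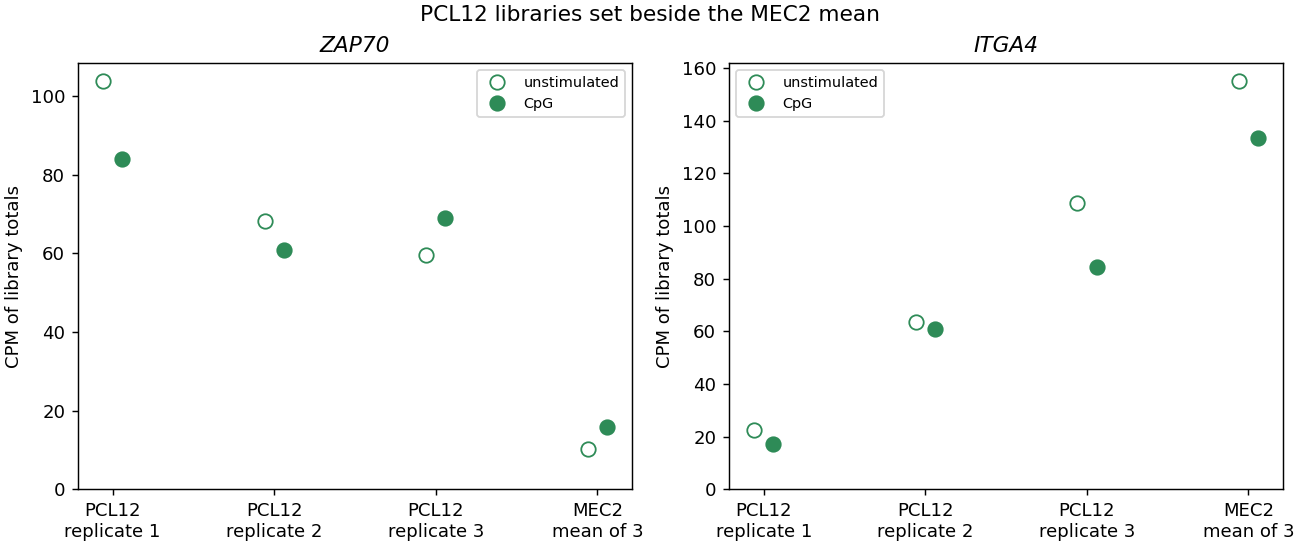
ZAP70 and ITGA4 in each PCL12 library beside the mean of 3 MEC2 libraries, in CPM of library totals on linear axes from 0, with open circles for unstimulated and filled circles for CpG-stimulated cells. In PCL12 replicates 2 and 3, ZAP70 lies below replicate 1 (68.2 and 59.5 against 104, unstimulated) and ITGA4 above it (63.5 and 109 against 22.7).

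The β chains that pair with ITGA4 had another order. ITGB7 averaged 210 CPM in HG3, against 340 in MEC2 and 696 in PCL12, and was higher in PCL12 than in HG3 (1.73, adjusted p = 3.86e-05) and lower in MEC2 than in PCL12 (-1.04, adjusted p = 0.0284). ITGB1 averaged 22.6, 19.0 and 66.4 CPM, with differences of 1.55 (adjusted p = 0.00171) and -1.80 (adjusted p = 0.00154) in the same comparisons. The ligand VCAM1 was highest in HG3 at 16.8 CPM, against 6.04 in MEC2 and 5.38 in PCL12. Of 10 integrin partners, ligands and adaptors, 2 were higher and 1 lower in MEC2 than in HG3, 4 were higher and 1 lower in PCL12 than in HG3, and 2 were lower in MEC2 than in PCL12. With PCL12 replicate 1 alone, 2 in place of 4 were higher in PCL12 than in HG3, and 1 in place of 2 was lower in MEC2 than in PCL12. Their median differences were 0.31, 0.76 and -0.19.

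LPL, the lipoprotein lipase, is a gene of fat and muscle that CLL cells can switch on, and here it was a gene of HG3. It had 100, 15 and 105 counts in unstimulated HG3, which is 2.20, 0.774 and 2.76 CPM (1.91 ± 1.02, SD, n = 3). MEC2 had 0, 7 and 0 counts and PCL12 had 8, 2 and 0. Every HG3 library was above every library of the other lines, and MEC2 and PCL12 overlapped near the floor of 3 counts. LPL was lower than in HG3 by -4.41 in MEC2 (SE 1.37, adjusted p = 0.0393) and by -4.13 in PCL12 (SE 1.34, adjusted p = 0.0499), and these calls were not firm. Leaving out 1 library gave -9.10 to -3.75 for MEC2 and -5.78 to -3.48 for PCL12. With a replicate effect shared by all lines as a block, the MEC2 difference had an adjusted p of 0.0518 in edgeR. With PCL12 replicate 1 alone the PCL12 difference was -2.87. The MEC2 call on LPL was lost without HG3 unstimulated replicate 1 (adjusted p = 0.0703) or 3 (0.0886), HG3 CpG replicate 1 (0.0517) or 2 (0.0577), and MEC2 unstimulated replicate 1 (0.160) or 3 (0.141). The PCL12 call on LPL was lost without HG3 unstimulated replicate 1 (adjusted p = 0.0860) or 3 (0.114), any HG3 CpG replicate (0.0639, 0.0713 and 0.0621), MEC2 CpG replicate 1 (0.0540) or 2 (0.0569), and PCL12 unstimulated replicate 2 (0.168) or 3 (0.179).

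Of 14 listed genes that process LPL or take up lipoproteins, 11 were tested: 2 were higher and 1 lower in MEC2 than in HG3, 2 were higher in PCL12 than in HG3, and none differed between MEC2 and PCL12. LIPG, the endothelial lipase related to LPL, was at 0.0610 CPM in HG3, against 2.77 in MEC2 and 6.36 in PCL12, so the lines with little LPL had more of it (5.45 and 6.65, adjusted p = 0.000363 and 4.65e-05). FURIN, a protease that cleaves and inactivates LPL, was higher than in HG3 by 1.64 in MEC2 and 1.73 in PCL12, and the lipoprotein receptor VLDLR was lower in MEC2 than in HG3 (-2.69, adjusted p = 0.0133).

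CRY1, a repressor in the circadian clock, was nearly absent from HG3. Unstimulated HG3 had 15, 21 and 4 counts, which is 0.330, 1.08 and 0.105 CPM (0.506 ± 0.512, SD, n = 3). MEC2 had 51.3, 52.1 and 33.0 CPM (45.5 ± 10.8) and PCL12 had 19.2, 26.6 and 28.7 CPM (24.8 ± 5.0). The order was thus MEC2, PCL12 and HG3, with no overlap between any pair of lines. CRY1 was higher than in HG3 by 6.66 in MEC2 (SE 0.63, adjusted p = 2.61e-07) and by 5.78 in PCL12 (SE 0.61, adjusted p = 1.14e-06), while MEC2 and PCL12 differed by 0.87 (SE 0.47, adjusted p = 0.502). With PCL12 replicate 1 alone the PCL12 difference from HG3 was 5.42 (adjusted p = 0.000350). HG3 and PCL12, which are alike in IGHV status, thus lay at the low end and in the middle.

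Of 21 clock genes, 1 was higher and 1 lower in MEC2 than in HG3, a share close to the 9.78% of all genes. Against HG3, 2 were higher and 2 lower in PCL12 (9.44% of all genes). Between MEC2 and PCL12, 1 was lower in MEC2 (2.05% of all genes). With PCL12 replicate 1 alone, 1 in place of 2 was lower in PCL12 than in HG3, and 1 more gene was higher in MEC2 than in PCL12. PER3, a clock repressor that partners CRY proteins, averaged 25.1 CPM ± 4.33 in PCL12 against 1.80 ± 1.34 in HG3 and 1.96 ± 0.865 in MEC2 (3.76 against HG3, adjusted p = 6.45e-06, and -3.68 for MEC2 against PCL12, adjusted p = 4.81e-05). BHLHE41, another clock repressor, averaged 20.7 CPM in PCL12, 5.23 in MEC2 and 1.18 in HG3, and its PCL12 difference from HG3 was 4.07 (adjusted p = 0.00740). ARNTL2, a paralog of the clock activator BMAL1, was lower than in HG3 by -1.11 in MEC2 and -1.31 in PCL12.

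TCL1A, a coactivator of the kinase AKT, gave the widest difference of the 10 genes between lines. Unstimulated HG3 had 0, 6 and 0 counts. MEC2 had 87.2, 91.2 and 78.1 CPM (85.5 ± 6.73, SD, n = 3) and PCL12 had 81.2, 36.4 and 60.1 CPM (59.3 ± 22.4). All libraries of MEC2 and PCL12 stood far above HG3, and those of MEC2 and PCL12 overlapped. TCL1A was higher than in HG3 by 10.32 in MEC2 (SE 0.95, adjusted p = 2.13e-06) and by 9.79 in PCL12 (SE 0.94, adjusted p = 3.20e-06), values that rest on 6 counts in HG3. With PCL12 replicate 1 alone the latter was 10.25 (adjusted p = 0.000184). MEC2 and PCL12 differed by 0.53 (SE 0.56, adjusted p = 0.801).

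TCL6, a noncoding gene next to TCL1A, averaged 1.15 CPM in HG3, against 4.41 in MEC2 and 7.13 in PCL12, and passed in PCL12 against HG3 (2.61, adjusted p = 0.0184).

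PEG10 varied least between lines among the members that were well counted. It stood at 159, 104 and 201 CPM in unstimulated HG3 (155 ± 48.8, SD, n = 3). It stood at 150, 165 and 184 CPM in MEC2 (166 ± 17.0) and at 128, 119 and 158 CPM in PCL12 (135 ± 20.6). The ranges overlapped for every pair of lines, and the differences were 0.10, -0.20 and 0.30 for MEC2 against HG3, PCL12 against HG3 and MEC2 against PCL12 (SE 0.26 each; adjusted p = 0.903, 0.723 and 0.727). PPP1R9A, a gene of the same imprinted cluster, did differ, with 610, 553 and 659 counts in unstimulated PCL12, 5, 0 and 9 in HG3 and 1, 1 and 0 in MEC2. Of 9 imprinted neighbours and related retrotransposon-derived genes, 4 were lower in MEC2 than in HG3, 1 was higher and 2 lower in PCL12 than in HG3, and 1 was lower in MEC2 than in PCL12. The 2 lower calls in PCL12 were lost with replicate 1 alone. PEG10 overlaps SGCE on the opposite strand, and the strand setting of the counting is not given in the sources used here. It is thus not known whether reads from the shared stretch of such pairs were told apart. The same holds for ITGA4 with CERKL and for CRY1, TCL1A, ADAM29 and CLLU1 with noncoding genes, and CLLU1 also overlaps a noncoding gene on its own strand.

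LAG3, an inhibitory receptor for MHC class II, was counted at low level. It had 68, 77 and 62 counts in unstimulated MEC2, which is 1.95, 3.14 and 1.77 CPM (2.29 ± 0.748, SD, n = 3). HG3 had 38, 0 and 45 counts (0.673 CPM ± 0.608) and PCL12 had 0, 18 and 19 (0.361 ± 0.328). Each MEC2 library was above all libraries of the unmutated lines, and HG3 and PCL12 overlapped. None of the differences passed: 1.73 for MEC2 against HG3 (SE 1.00, adjusted p = 0.312), 2.65 for MEC2 against PCL12 (SE 1.05, adjusted p = 0.293) and -0.93 for PCL12 against HG3 (SE 1.01, adjusted p = 0.639).

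Of the ligands of LAG3, the MHC class II genes HLA-DRA and HLA-DRB1 were lower in both other lines than in HG3. HLA-DRA averaged 2644 CPM ± 106 in HG3, against 948 ± 76.1 in MEC2 and 609 ± 104 in PCL12 (-1.48 and -2.12 from HG3, adjusted p = 0.000185 and 1.82e-06), and HLA-DRB1 was lower by -1.15 and -1.94. TIGIT, another inhibitory receptor, was higher than in HG3 (0.182 CPM) in MEC2 (2.71 CPM; 4.08, adjusted p = 0.000235) and PCL12 (8.30 CPM; 5.69, adjusted p = 5.71e-06). Of 11 ligands, proteases and checkpoint receptors, 2 were higher and 3 lower in MEC2 than in HG3, 1 was higher and 4 lower in PCL12 than in HG3, and none passed between MEC2 and PCL12. Of the 4 lower calls in PCL12, 2 were lost with replicate 1 alone.

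ADAM29, a protease-family gene known from mutated CLL, was counted almost only in MEC2. It had 22, 9 and 2 counts in unstimulated MEC2, against 0, 0 and 2 in HG3 and 0, 0 and 2 in PCL12. Scaled to library size, the ratio of the summed counts of MEC2 to HG3 was 18 (95% interval from the counts 4.59 to 155) and to PCL12 17.9 (4.57 to 154), intervals that cover counting error only. The libraries of MEC2 spread from 2 to 22 counts, and edgeR gave adjusted p-values of 0.239 and 0.447. In its family, ADAM19 was higher than in HG3 (7.88 CPM) in MEC2 (56.6 CPM; 2.84, adjusted p = 7.58e-05) and PCL12 (156 CPM; 4.29, adjusted p = 8.48e-07). ADAM23 averaged 20.1 CPM in MEC2 and 0.246 in HG3 (6.22, adjusted p = 0.00738), and of 14 listed family genes tested only ADAM19 and ADAM23 passed in any unstimulated comparison. ADAM23 was also called between MEC2 and PCL12 with replicate 1 alone.

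CLLU1, a noncoding gene named for its upregulation in CLL, was close to the floor everywhere. All 6 HG3 libraries had 0 counts, unstimulated MEC2 had 0, 4 and 0 and unstimulated PCL12 had 10, 0 and 3. In PCL12, 10 of the 13 counts were in replicate 1, and edgeR's adjusted p against HG3 was 0.334 for MEC2 and 0.238 for PCL12. The gene CLLU1OS on the opposite strand overlaps CLLU1 in part. It had 113, 273 and 346 counts in unstimulated HG3 (8.56 CPM ± 5.82), 5, 0 and 11 in MEC2 and 18, 17 and 2 in PCL12, with edgeR differences from HG3 of -5.71 (adjusted p = 0.00344) and -4.40 (adjusted p = 0.0145). Whether reads from the shared stretch were told apart is not known, but HG3 had CLLU1OS counts and no CLLU1 count. Of 4 tested genes around CLLU1, CLLU1OS and BTG1, an antiproliferative gene, were lower in MEC2 and in PCL12 than in HG3.

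**Figure D3:**
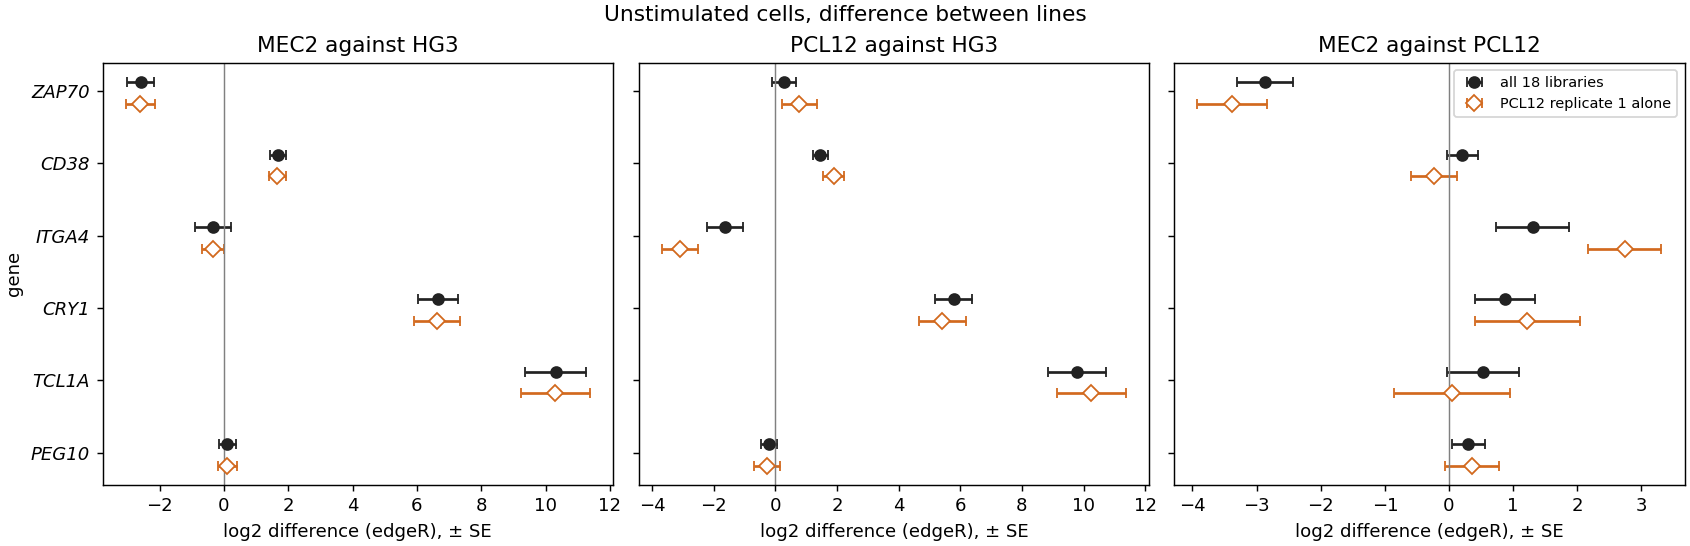
Log2 difference (edgeR) with its SE for the 6 members above 10 CPM in most libraries, in unstimulated cells, with filled circles for the fit to all 18 libraries and open diamonds for PCL12 by replicate 1 alone. ZAP70 is below 0 in MEC2 against both other lines (-2.59 and -2.87), CD38, CRY1 and TCL1A passed the test against HG3 and not between MEC2 and PCL12 (0.21, 0.87 and 0.53), and ITGA4 moves away from 0 when PCL12 is taken by replicate 1 (-3.08 and 2.74).

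Set against the mean of the unmutated lines, MEC2 differed in 4 of the 10 genes (4.95% of all genes tested): ZAP70 (-2.73), CD38 (0.94), CRY1 (3.76) and TCL1A (5.42). For CD38, CRY1 and TCL1A the unmutated lines lay apart from each other, with PCL12 closer to MEC2. With PCL12 replicate 1 alone (4.12% of all genes), where the other lines give the spread, CD38 was at 0.71 with an adjusted p of 0.156. LAG3 passed in that fit (adjusted p = 0.0288) on the single value of 0 counts, where the same replicate had 20 counts after CpG and the other unstimulated replicates 18 and 19. Among 11 further genes known to be higher in unmutated CLL, 2 were higher and 3 lower in MEC2 than in HG3, 2 were higher and 2 lower in PCL12 than in HG3, and 2 were higher and 2 lower in MEC2 than in PCL12. The 2 higher calls against PCL12 and 1 of the 2 lower calls in PCL12 against HG3 were lost with replicate 1 alone. TPM2, a tropomyosin, was lower in MEC2 (11.4 CPM ± 4.30) than in HG3 (86.0 ± 47.7; -2.91, adjusted p = 6.63e-05) and PCL12 (116 ± 22.8; -3.34, adjusted p = 7.91e-05). SEPT10, a septin, was lower in MEC2 (0.586 CPM) than in HG3 (2.43; -2.07, adjusted p = 0.00747) and PCL12 (24.4; -5.42, adjusted p = 8.12e-07). KANK2 went the other way and was higher in MEC2 than in HG3 and PCL12 (1.02 and 1.34, adjusted p = 0.0265 and 0.0127). Of 4 genes known to be higher in mutated CLL, none passed in any of the 3 comparisons.

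Genes with a pattern over the 6 groups most like that of a member were ranked by the root mean square difference of centred log2 CPM. For ZAP70 they were CELSR3 (0.153), ECE1 (0.180) and CARMIL1 (0.186), for CD38 AC010203.1 (0.0904), RASA3 (0.0976) and IL2RB (0.107), and for ITGA4 AC100861.1 (0.120) and ARHGAP26 (0.122). For CRY1 they were HMX3 (0.127), FMNL2 (0.151) and DEPDC1 (0.206), and for LAG3 ZNF549 (0.155), AL353763.1 (0.171) and CCNE2 (0.183). TCL1A had no near match, with MAP3K20 at 0.328, PRKCA at 0.425 and SLC12A8 at 0.525, whereas the flat PEG10 matched ANAPC13 (0.0191), PABPC1 (0.0360) and QARS (0.0424).

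After CpG for 4 h, none of the 10 genes passed in any line in edgeR's quasi-likelihood test without pairing of replicates. The definition of a differentially expressed gene in the paper's methods was used, a nominal p under 0.01 and a Log2FC of at least 1 in either direction. The paper took its p-values from limma and reports more such genes in each line. Over all genes tested, the share that passed was 0.496% for HG3, 0.251% for MEC2 and 0.116% for PCL12. At an adjusted p under 0.05, edgeR's quasi-likelihood test called 1 gene in HG3 and 1 in MEC2 (0.00314% each) and 0 in PCL12 (0%), none of them a member, and 1189, 783 and 665 genes (3.73%, 2.46% and 2.09%) had an unadjusted p under 0.05. Among the members that was CRY1 in HG3 alone. DESeq2 and the edgeR fit with the replicate number as a block called it by the definition, and limma-voom did not. The libraries of the 2 treatments overlapped for all members in HG3 (3.72% of all genes did not overlap) and PCL12 (4.55%), and in MEC2 for all but TCL1A (4.72%). The difference of the CpG effect between lines passed for no member in any of the 3 pairs of lines (0% of all genes for MEC2 against HG3 and against PCL12, 0.00314% for PCL12 against HG3).

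**Figure D4:**
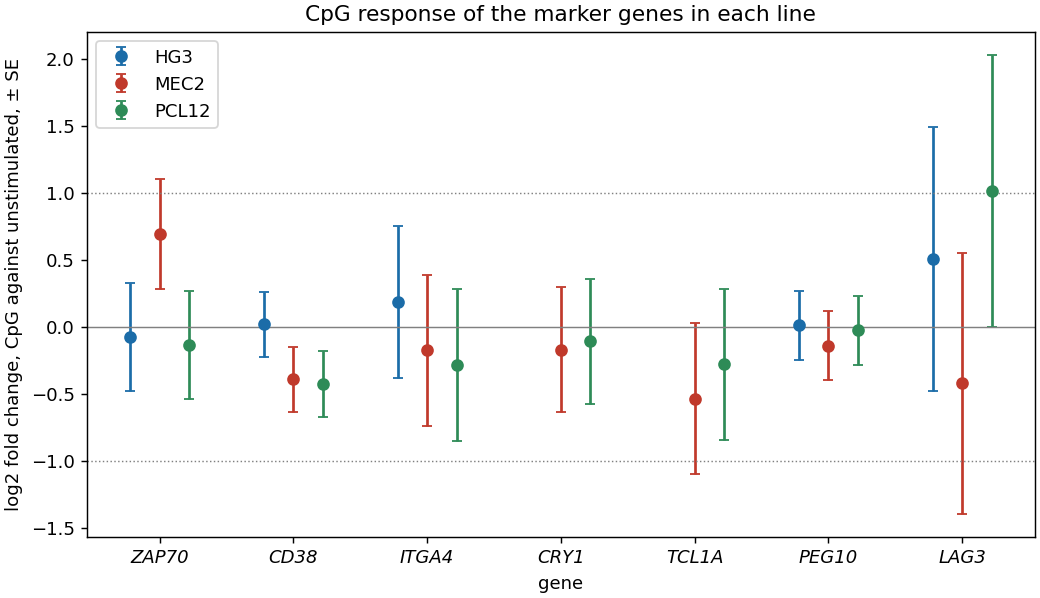
Log2 fold change of CpG-stimulated against unstimulated cells with its SE (edgeR, 3 libraries a group) for 7 members in each line, with dotted lines at the fold required for a call. CRY1 and TCL1A are left out for HG3, where their counts are near 0. All values lie within the dotted lines except LAG3 in PCL12, which is 1.01 with an SE of 1.01.

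ZAP70 after CpG stood at 14, 28.8 and 6.30 CPM in MEC2 (16.4 ± 11.5, SD, n = 3). The ratio of CpG to unstimulated within a replicate was 1.04, 2.44 and 1.20, above 1 in 3 of 3, with the highest in the mitochondria-rich library. The Log2FC was 0.70 (SE 0.41, adjusted p = 1 in edgeR's quasi-likelihood test), fell to 0.0091 without MEC2 CpG replicate 2, and without MEC2 CpG replicate 3 reached 1.08 (adjusted p = 0.930), which passes the definition on its nominal p. In HG3 ZAP70 stood at 58.9, 61.7 and 54.0 CPM and in PCL12 at 80.9, 57.5 and 65.1 CPM after CpG, within or near the unstimulated range (-0.07 and -0.13). The order of the lines for ZAP70 was the same after CpG, with every MEC2 library below every other.

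CD38 after CpG was at 45.5, 52.0 and 38.3 CPM in MEC2 (45.3 ± 6.88) and 39.8, 44.1 and 31.0 CPM in PCL12 (38.3 ± 6.67). Ratios within a replicate were 0.672, 0.876 and 0.752 in MEC2, below 1 in 3 of 3, and 0.583, 1.08 and 0.686 in PCL12, below 1 in 2 of 3. The Log2FC of -0.39 in MEC2 and -0.42 in PCL12 (SE 0.24 each, adjusted p = 1 each) did not pass in edgeR's quasi-likelihood test. HG3 had 18.2, 20.9 and 17.7 CPM after CpG, with a Log2FC of 0.02 (SE 0.24). The difference of the CD38 response between MEC2 and HG3 was -0.41 (SE 0.35).

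TCL1A after CpG was at 64.7, 36.3 and 76.1 CPM in MEC2 (59.0 ± 20.5), all below the unstimulated 78.1 to 91.2 CPM, and the lowest was in the mitochondria-rich library. The ratios were 0.742, 0.398 and 0.975, and the Log2FC was -0.54 (SE 0.56, adjusted p = 1 in edgeR's quasi-likelihood test), or -0.27 without that library. In PCL12 TCL1A stood at 48.1, 37.8 and 60.7 CPM (-0.28, SE 0.56). HG3 had 9, 0 and 0 counts after CpG and 0, 6 and 0 before, so TCL1A stayed near the floor in HG3 under both treatments.

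CRY1 in HG3 had 7, 0 and 9 counts after CpG against 15, 21 and 4 before. The Log2FC was -1.50 (SE 0.70, adjusted p = 1 in edgeR's quasi-likelihood test), and it rests on 40 and 16 counts in all. With the replicate number as a block it was -1.34 (adjusted p = 0.439), and without HG3 unstimulated replicate 3 it was -2.04 (adjusted p = 0.742), both of which pass the definition on the nominal p. Without the mitochondria-rich HG3 unstimulated replicate 2 it was -0.49 (adjusted p = 1). In MEC2 CRY1 stood at 48.6, 38.3 and 34.4 CPM and in PCL12 at 18, 27.6 and 23.6 CPM after CpG (-0.17 and -0.11).

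ITGA4 after CpG was at 249, 203 and 209 CPM in HG3 (220 ± 24.9), and its ratios of 0.826, 2.68 and 1.03 differ through the low unstimulated replicate 2. It was at 115, 136 and 157 CPM in MEC2 and at 16.6, 57.3 and 79.6 CPM in PCL12. The Log2FC was 0.19, -0.17 and -0.28 in HG3, MEC2 and PCL12 (SE 0.56, 0.56 and 0.57). PCL12 replicate 1 was again lowest, so the split between PCL12 replicates was seen under both treatments.

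PEG10 moved little, with a Log2FC of 0.01, -0.14 and -0.02 in HG3, MEC2 and PCL12 (SE 0.26 each). LPL in HG3 had 102, 135 and 69 counts after CpG (2.98 CPM ± 0.990) and a Log2FC of 0.63 (SE 1.13), with ratios of 1.21, 5.28 and 0.788, the highest from the unstimulated library with 15 counts. LAG3 after CpG had 52, 74 and 36 counts in MEC2, 16, 47 and 35 in HG3 and 20, 26 and 32 in PCL12, with a Log2FC of -0.42, 0.51 and 1.01 (SE 0.97, 0.99 and 1.01). In PCL12, LAG3 rose in each replicate, from 0 to 20 counts in replicate 1 and by ratios of 1.76 and 1.84 in replicates 2 and 3. Leaving out 1 library gave a Log2FC of 0.44 to 1.69, which did not pass.

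ADAM29 had 27, 10 and 5 counts in MEC2 after CpG, close to the 22, 9 and 2 before, and CLLU1 had 0, 2 and 0 in MEC2 and 12, 0 and 0 in PCL12. Among the genes listed beside the members, 4 passed the definition in a line: PCSK6, a protease that acts on the lipase family, fell in HG3 (a mean of 0.850 CPM before and 0.0311 after), TIGIT had 0, 7 and 7 counts in HG3 before and none after CpG, PPP1R9A rose in HG3 (2.25, from 0.116 to 0.621 CPM) and ADAM8, a protease of leukocytes, rose in MEC2 (1.18, from 116 CPM ± 15.4 to 262 ± 150). ADAM8 stood at 221, 428 and 137 CPM in MEC2 after CpG, and without the mitochondria-rich replicate 2 its Log2FC was 0.64, which does not pass. PPP1R9A did not pass without HG3 CpG replicate 1 (1.77), while PCSK6 and TIGIT passed without any 1 library. TIGIT averaged 2.71 CPM before and 6.95 after CpG in MEC2 and 8.30 and 15.3 in PCL12, where neither passed (Log2FC 1.36 and 0.88, SE 0.57 and 0.56). None of these 4 had an adjusted p under 0.05 (adjusted p = 0.653 for PCSK6 and 1 for the others in edgeR's quasi-likelihood test).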

How the data were processed

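RNA of 18 samples was sequenced. Per the labels, RNA was extracted with a Promega kit and libraries were made with the Lexogen QuantSeq method, while the paper names a Qiagen kit and a stranded reverse protocol. The submitters' processing notes list FastQC, MultiQC, Trimmomatic, STAR, featureCounts and hg38, and versions, annotation, duplicate handling and the strand setting of counting are not given in the sources used here. The authors deposited raw counts per gene symbol, and 0 columns were left unused.

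Deposited counts were analysed with R 4.3.3, edgeR 4.0.16 (TMM, at least 10 counts over all libraries, 1 mean per group, robust quasi-likelihood test, 12 residual degrees of freedom), limma 3.58.1, DESeq2 1.42.0 and Python 3.11.15, and p-values were adjusted by Benjamini-Hochberg. A call between lines was an adjusted p under 0.05, and after CpG a nominal p under 0.01 with an absolute Log2FC of at least 1. The likeness of patterns used log2 of CPM plus 0.5, over genes that average 1 CPM or more. The steps were tested on simulated data. Intervals (95%) and floors (3 counts) cover counting error only.

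The design text places 1 stimulated and 1 unstimulated sample in each replicate series, so the numbers pair samples within a line. Over genes averaging 1 CPM or more, deviations of same-numbered libraries from their group means correlated as follows. Replicates 1, 2 and 3 gave 0.259, 0.212 and 0.480 for HG3. The values for MEC2 were 0.189, -0.0133 and 0.611. Those for PCL12 were 0.607, 0.494 and 0.515. In comparisons between lines, the block was a replicate effect shared by all lines, and after CpG it was fitted within each line. The labels do not state that equal replicate numbers of different lines belong together. Blocked values stand beside results they change.

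The members and the 17 other lists were chosen with earlier results of these data known. All members are named. From each other list up to 4 genes could be named, those with an adjusted p under 0.05 and an absolute log2 difference of at least 1 between unstimulated lines, or called after CpG, smallest p first. Marker genes named beside them (MS4A1, CD79A, CD3D, CD3E, CD3G, TRAC, CD28, GNLY and SDC1) were picked from the marker lists after their values were seen. No promoter sequence was used for LAG3 and PEG10, and no protein sequences were used. Some genes that these rules name are not reported here.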

Additional observations from a re-analysis of the deposited data

How the results depend on the processing

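Alternatives were DESeq2, limma-voom, RLE factors, library totals, filterByExpr, no filter, a replicate block, PCL12 by replicate 1 alone, and each of the 18 libraries left out in turn. Over the members and comparisons of unstimulated lines, the direction and the call held in all of them for ZAP70 in MEC2 against HG3 and against PCL12, and for CD38, CRY1 and TCL1A in MEC2 and in PCL12 against HG3. Of 80 recomputed counts of called members, other than by leaving out a library, 75 stayed within 1.5 times the reported count. Most of the 80 concern the CpG effect, where the reported count is 0 and few of all genes pass. Staying at 0 there says little, and a change from 4 to 5 counts as unchanged. The count in HG3 after CpG was 1 in place of 0 (CRY1, lower) with DESeq2, with no filter and with the replicate block that pairs the samples of a replicate series, and the count for MEC2 against PCL12 was 2 in place of 1 (ITGA4 added) with no filter and with PCL12 replicate 1 alone. Without 1 library, the count of called members was 0 to 1 in HG3 and 0 to 1 in MEC2 after CpG, 4 to 5 for MEC2 against HG3, and 3 to 5 for PCL12 against HG3. The replicate block ended 1 call between lines, that of LPL for MEC2 against HG3 (-4.65, adjusted p = 0.0518), and changed no other call but that of CRY1 after CpG in HG3 (-1.34).

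LPL in PCL12 against HG3 had 0.0533 with RLE factors and 0.0567 with library totals. Signs turned for values near 0: after CpG in HG3, CD38 was -0.0030 in DESeq2 and -0.0039 with RLE factors, TCL1A was -0.13 in DESeq2 and -0.37 in limma-voom, ZAP70 was 0.033 and PEG10 was -0.012 in limma-voom, and CD38 in MEC2 against PCL12 was -0.23 with PCL12 replicate 1 alone. The cause was not tested.

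Leaving out 1 library turned the sign of 21 log2 values, none of them called, some of which also turned under another method above. After CpG in HG3 the ranges were -0.057 to 0.071 for CD38, -0.17 to 0.68 for ITGA4, -0.017 to 1.14 for LAG3, -0.20 to 0.25 for PEG10, -4.22 to 4.69 for TCL1A and -0.21 to 0.28 for ZAP70. After CpG in MEC2 they were -0.51 to 0.99 for ADAM29 and -0.33 to 0.046 for PEG10. After CpG in PCL12 they were -5.15 to 0.72 for CLLU1, -0.26 to 0.040 for CRY1, -0.74 to 0.34 for ITGA4, -4.87 to 0.96 for LPL, -0.099 to 0.093 for PEG10, -0.53 to 0.025 for TCL1A and -0.29 to 0.19 for ZAP70. For MEC2 against HG3 they were -0.70 to 0.16 for ITGA4 and -0.094 to 0.34 for PEG10, for PCL12 against HG3 -0.39 to 0.039 for PEG10 and -0.039 to 0.63 for ZAP70, and for MEC2 against PCL12 -5.25 to 0.54 for CLLU1 and -4.96 to 1.39 for LPL. Leaving out a library for the genes named beside the members, PCL12 replicate 1 alone for them, and the choice of MEC2-high genes on each PCL12 replicate were added after seeing the data. Depth limits what few counts can show after CpG, as for CLLU1, LPL outside HG3 and TCL1A in HG3.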
